A study of Cavia porcellus with 72 samples.

Results

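This report describes hippocampal RNA of juvenile female guinea pigs of the second generation (F2) after treatment of their paternal grandmothers with betamethasone, a synthetic glucocorticoid (sGC). The F2 count table was taken whole, with its 6 sGC and 6 control animals, which are 12 of the 72 libraries of the series. F1 males born to Dunkin-Hartley females that had been given repeated courses of betamethasone (sGC) or vehicle (control) in pregnancy were mated with untreated females, so no F2 animal and no F2 mother received the hormone. Each library came from the right hippocampus of 1 animal on postnatal day 40, killed in a basal state. The animals of a group had independent mothers, by the methods description. The RNA is that of whole tissue, so fewer cells of a type and less RNA per cell cannot be told apart. The F1 comparison (11 libraries) and the F3 comparison (13 libraries) are used only to show where F2 differs.

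Glucocorticoids act through the glucocorticoid receptor and the mineralocorticoid receptor, ligand-activated transcription factors that the hippocampus expresses at high levels and that take part in the feedback control of the stress axis. Before they bind hormone, these receptors are held by heat shock proteins and cochaperones such as FKBP5, whose gene is itself a target of the receptor. In the F2 animals, the exposed cells of the family line were the germ cells of a fetus, so the comparison asks whether hippocampal transcription differs when only that lineage met the hormone.

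The total of assigned reads lay between 14006523 and 17487415 per control animal and between 13507449 and 16282609 per sGC animal. Levels are given as CPM, which are counts per 1000000 counts of the library after TMM scaling. This makes genes comparable between animals but not with each other, since it does not correct for length. The control libraries carry the library numbers 12 to 17. Of the sGC libraries, 5 carry numbers between 10 and 20, and sGC replicate 6 has number 33. In the whole series the numbers 32 to 36 belong to sGC libraries only, and F1 and F3 hold the others of these. The labels do not say what the numbers stand for, and their part in the F1 and F3 calls given below was not tested. On the first principal component, which held 15.2% of the variance, sGC replicate 4 stood apart at 17.07, against at most 7.24 in the other libraries. The second component held 14.7%, with control replicate 2 at 13.93 and sGC replicate 2 at -11.83 as its ends. For the ribosomal, immediate early and collagen lists and the genes without overlap, values without sGC replicates 4 and 6 together are also given.

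No gene passed the test after adjustment for the number of genes. Of the 11716 genes in the table, 11414 had enough reads, and 0 of them had an adjusted p under 0.05 by the quasi-likelihood test of edgeR (smallest adjusted p = 0.379). By the same fit 758 genes (6.64%) had an unadjusted p under 0.05, the share that a gene group is read against, with 427 higher (3.74%) and 331 lower (2.9%) in sGC animals. The likelihood ratio test of edgeR called 6 genes at an adjusted p under 0.05 and DESeq2 called 10, and limma-voom called 0. The differences were small, with a median size of 0.0435 on the log2 scale over the 11414 genes and only PPEF1 beyond 1 (-1.03). The median of the signed differences was -0.000407, which TMM scaling holds near 0 and which is no measure of size. Only 16 genes combined an unadjusted p under 0.05 with a fold change above 1.5 in either direction.

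Of the genes with higher values in sGC animals, CDK2AP1, NPNT and ID3 had the smallest p. CDK2AP1, which encodes an inhibitory partner of a cyclin-dependent kinase, had 46.6, 51.8 and 53.1 CPM in the lowest, median and highest control animal and 55.4, 58.6 and 62.6 CPM in the sGC animals. All 6 sGC animals lay above all 6 control animals, with a log2 difference of 0.21 (standard error 0.0412, adjusted p = 0.379 by edgeR). NPNT encodes nephronectin, a matrix ligand of integrins, and had 61.1, 64.4 and 70.3 CPM in control and 71.5, 74.1 and 81.8 CPM in sGC animals. Its groups did not overlap either (log2 fold change 0.22, standard error 0.0431, adjusted p = 0.379 by edgeR). ID3, a dominant negative partner of basic helix-loop-helix factors that responds to BMP and TGF-beta signals, had 19.9, 21.8 and 23.4 CPM in control and 23.9, 26.2 and 27.8 CPM in sGC animals (log2 fold change 0.25, standard error 0.0554), again without overlap. These 3 genes were among those called by the likelihood ratio test, with adjusted p of 0.0108 for CDK2AP1 and NPNT and 0.0475 for ID3.

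PDE2A, a phosphodiesterase that cyclic GMP stimulates, had means of 1489 ± 42.7 CPM in control and 1615 ± 42.0 CPM in sGC animals (SD, n = 6 each), and its groups overlapped. SLC39A10, a zinc importer, had 136 ± 4.58 and 149 ± 3.01 CPM (SD, n = 6 each) and no overlap. CENPB, a centromere protein, had 63.8 ± 1.40 and 70.2 ± 3.36 CPM (SD, n = 6 each), also without overlap. The other 6 higher genes with the smallest p were MAPK8IP1 (a scaffold of JNK signalling), C12orf65 (a factor of mitochondrial translation), TRAF3IP1 (a protein of ciliary transport), RGMA (a repulsive guidance molecule), ITGA6 (an integrin that binds laminin) and RPS9 (a ribosomal protein). All 6 had an overlap of the groups, log2 fold changes between 0.13 and 0.19 and every sGC animal above the control mean.

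Of the genes with lower values in sGC animals, Maob and ZFYVE19 had the smallest p. Maob encodes monoamine oxidase B, an enzyme of the outer mitochondrial membrane that degrades monoamines. It had 237, 243 and 262 CPM in the lowest, median and highest control animal and 212, 222 and 227 CPM in sGC animals. The groups did not overlap, with a log2 difference of -0.15 (standard error 0.0301, adjusted p = 0.379 by edgeR and 0.00164 by DESeq2). ZFYVE19, a regulator of the abscission step of cell division, had 22.2, 24.2 and 27.7 CPM in control and 15.6, 19.5 and 20.9 CPM in sGC animals, without overlap (log2 fold change -0.37, standard error 0.0738). ME1, the cytosolic malic enzyme that supplies NADPH, had 50.5 ± 0.869 CPM in control and 45.4 ± 1.64 CPM in sGC animals (SD, n = 6 each). OPA1, the GTPase that fuses inner mitochondrial membranes, had medians of 129 CPM in control and 121 CPM in sGC animals. Neither ME1 nor OPA1 had an overlap of the groups.

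The 2 largest of these differences were in genes with few reads. LCTL, a member of the klotho family, had 4.45, 4.89 and 9.39 CPM in control and 2.45, 3.05 and 3.70 CPM in sGC animals. The groups did not overlap, and the log2 fold change of -0.87 (standard error 0.184) became -0.68 without control replicate 1, the animal at 9.39 CPM. PPEF1, a protein phosphatase with calcium-binding EF hands, had 0.718, 0.831 and 1.2 CPM in control and 0.251, 0.373 and 0.698 CPM in sGC animals, with no overlap and a log2 difference of -1.03 (standard error 0.257, adjusted p = 0.507 by edgeR). OR51E1, an olfactory receptor gene, had 27.1 ± 4.76 and 19.3 ± 2.20 CPM (SD, n = 6 each), a log2 fold change of -0.49. Its lowest control animal (21.6 CPM) lay below its highest sGC animal (23.3 CPM).

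SYT1, the calcium sensor of fast transmitter release, had 1814, 1892 and 1923 CPM in the lowest, median and highest control animal and 1646, 1744 and 1816 CPM in sGC animals, so that the groups met at their edges (log2 fold change -0.11, standard error 0.0265). CNKSR2, a scaffold of Ras signalling at synapses, had 453 ± 15.7 and 414 ± 15.3 CPM (SD, n = 6 each). DESeq2 gave adjusted p of 0.0355 for SYT1 and 0.0446 for CNKSR2. The quasi-likelihood test of edgeR gave 0.507 for both, and its likelihood ratio test gave 0.335 and 0.307. HMGN3, a nucleosome-binding protein, had 58.6, 78.6 and 82.4 CPM in control and 47.4, 58.9 and 66.5 CPM in sGC animals, and all 6 sGC animals lay below the control mean. DDX39B, an RNA helicase of splicing and mRNA export, had 207, 214 and 218 CPM in control animals and 179, 183 and 216 CPM in sGC animals. The fit with every animal kept put DDX39B at -0.17 on the log2 scale, and edgeR gave it an adjusted p of 0.507. The value of 216 CPM was that of sGC replicate 5, the animal against the trend. Among fits that each left out 1 library, the adjusted p of DDX39B by edgeR ran from 0.034 to 0.931. The lower end was the fit without sGC replicate 5 (log2 fold change -0.21), and no other of these fits called a gene. VPS53, a subunit of a tethering complex for vesicles that return to the Golgi, had 82.6 ± 1.87 and 76.4 ± 2.26 CPM (SD, n = 6 each).

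**Figure D1:**
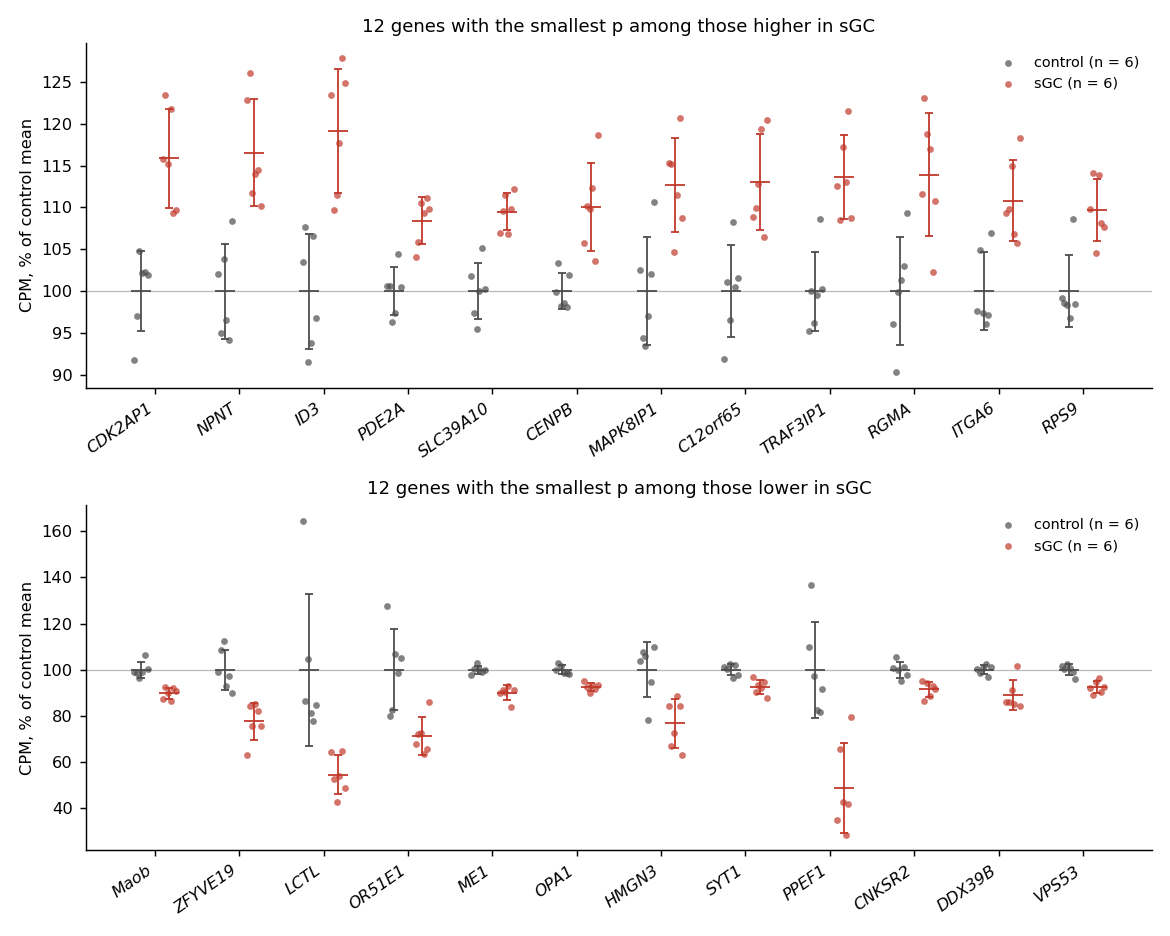
CPM of the 12 higher (top) and the 12 lower genes (bottom) with the smallest p in F2, as % of the control mean on the vertical axis, with 1 point per animal and bars for the mean ± SD of 6 animals. The genes were chosen for these differences. The groups were apart for 11 of the 24 genes, and 1 control animal of LCTL stood far above the others.

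Of the 11414 genes tested, 46 (0.403%) had every sGC animal above or every sGC animal below all control animals, 25 higher (0.219%) and 21 lower (0.184%). An unadjusted p under 0.05 was found for 44 of the 46. This follows largely from the separation of the same values and adds nothing to it. Some genes separate by chance among so many, and their number was not tested. The median difference of the 46 genes was 0.115 in size on the log2 scale. Among them was KCNS1, a silent subunit of voltage-gated potassium channels, with 18.9 to 22.6 CPM in control and 16.7 to 18.7 CPM in sGC animals. EGR4, an immediate early transcription factor, had 186 to 198 CPM in control and 199 to 207 CPM in sGC animals. SOCS7, a suppressor of cytokine signalling, had 85.5 to 94.3 and 94.4 to 103 CPM. The gap between the groups was narrow for both.

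A p above the threshold does not show that a gene was the same in both groups, so the 95% interval of each log2 fold change was used to say which sizes of difference remained possible. For 10927 genes (95.7%) the whole interval lay within 1.5-fold in either direction, and for 8767 genes (76.8%) it lay within 1.2-fold. Precision followed the number of reads. The median interval reached 45.1% to either side for genes under 1 CPM, 25.7% for the 1179 genes at 1 to 5 CPM, 12.8% for the 2505 genes at 5 to 20 CPM, 7.03% for the 4996 genes at 20 to 100 CPM and 5.32% for the 2540 genes above 100 CPM. The intervals rest on the spread of 6 animals per group.

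**Figure D2:**
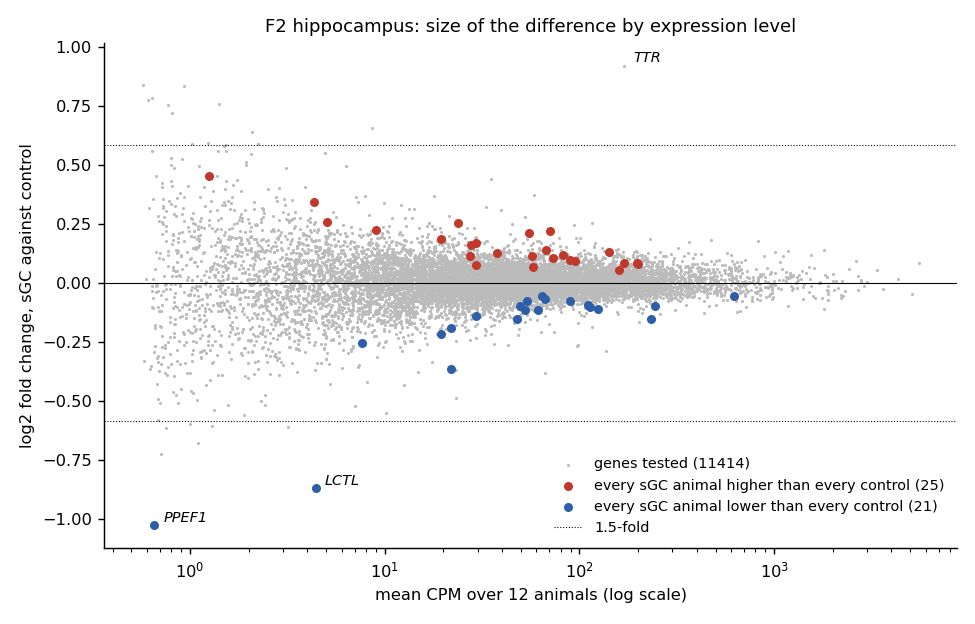
Log2 fold change of sGC against control (vertical axis) by mean CPM over the 12 animals (horizontal log axis) for the 11414 genes tested in F2, with dotted lines at 1.5-fold. Red and blue points are the 25 and 21 genes whose groups did not overlap, and the scatter narrows from left to right as reads increase.

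The F2 comparison was compared with those of F1 and F3, each fitted alone on its own animals. The quasi-likelihood test of edgeR called 237 genes in F1 (2.08%) and 573 in F3 (5.04%) at an adjusted p under 0.05, against 0 in F2, and the share with an unadjusted p under 0.05 was 19.6% in F1 and 21.1% in F3, against 6.64%. The median size of the log2 fold change was 0.0799 in F1, 0.0435 in F2 and 0.0669 in F3. The median standard error was 0.0663 in F1, 0.0527 in F2 and 0.0561 in F3, so the F2 comparison had the smallest differences together with the smallest errors. Over the 11161 genes tested in all 3, the standard error was larger than that of F2 for 77.6% of genes in F1 and 58.5% in F3, and the difference was larger in size for 67.2% and 62.7%. The share of genes whose interval lay within 1.2-fold was 59.3% in F1, 76.8% in F2 and 70.5% in F3.

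**Figure D3:**
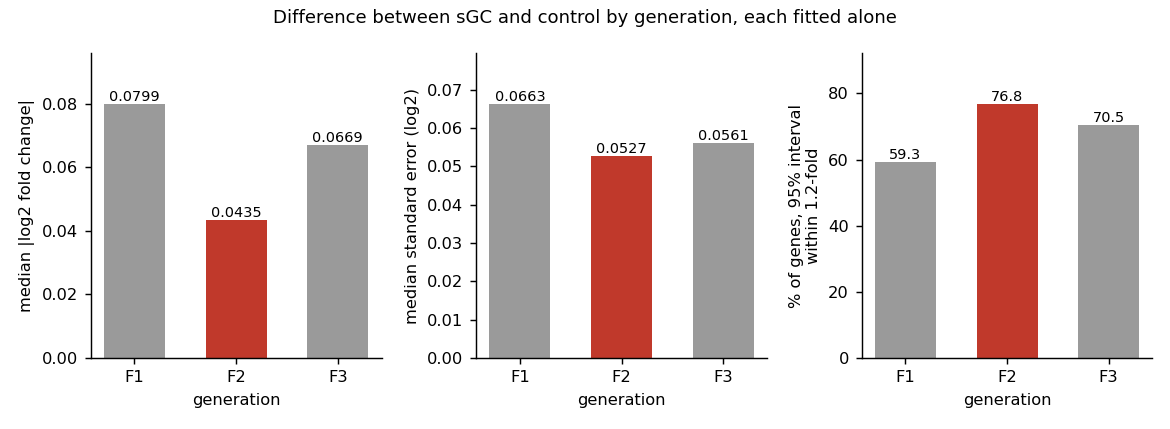
Median size of the log2 fold change (left), median standard error of the log2 fold change (middle) and % of genes whose 95% interval lay within 1.2-fold (right) for sGC against control in F1 (11 libraries), F2 (12, red) and F3 (13). F2 had the lowest bar in the first 2 panels and the highest, 76.8%, in the third.

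The difference itself was tested as an interaction over all 36 RNA libraries, as the F2 log2 fold change minus the mean of those in F1 and F3. Of 11390 genes, 0 had an adjusted p under 0.05 by the quasi-likelihood test of edgeR (smallest adjusted p = 0.126), 1503 (13.2%) had an unadjusted p under 0.05, and the likelihood ratio test called 6. Without F2 sGC replicate 6, the quasi-likelihood test called 7. DENND4A, an activator of RAB10, had the smallest interaction p. Its log2 fold change was -0.06 in F2, 0.24 in F1 and 0.19 in F3, a difference of -0.27 (standard error 0.0551, adjusted p = 0.126). PIK3C2A, a class II phosphoinositide kinase of endocytosis, had -0.05 in F2, 0.55 in F1 and 0.27 in F3 (difference -0.47, standard error 0.0997). TDRD7, a Tudor domain protein of RNA granules, had -0.13 in F2, 0.12 in F1 and 0.18 in F3. In the other direction, ACOT8, a peroxisomal thioesterase, had 0.16 in F2, -0.09 in F1 and -0.06 in F3, and its F2 groups did not overlap (24.8 to 26.9 CPM in control, 27.2 to 31.1 CPM in sGC animals). MAEA and PDIA6, a subunit of a ubiquitin ligase and a protein disulfide isomerase, had 0.08 and 0.09 in F2 and negative values in F1 and F3.

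Most of the 24 genes with the smallest p in F2 pointed the same way in the other generations, 18 of 24 in F1 and 20 of 24 in F3. Over all genes tested in both, the sign was that of F2 for 49.6% in F1 and 57% in F3. Of the 24 genes, 0 had an adjusted p under 0.05 in F1 by the quasi-likelihood test of edgeR, where 2.08% of all genes did. In F3 it was 6 of 24, against 5.04% of all genes, namely NPNT, CENPB, RPS9, Maob, OPA1 and SYT1. NPNT had log2 fold changes of 0.29 in F1, 0.22 in F2 and 0.25 in F3, and Maob had -0.09, -0.15 and -0.19. SYT1 had 0.04 in F1, -0.11 in F2 and -0.19 in F3. LCTL pointed the other way in F1 and F3, with 0.46 in F1, -0.87 in F2 and 0.05 in F3, but its interaction had an adjusted p of 0.179.

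The receptors of the hormone and their partners showed small differences with narrow intervals. NR3C1, the glucocorticoid receptor, had 119 ± 6.59 CPM in control and 118 ± 6.13 CPM in sGC animals (SD, n = 6 each). The log2 fold change was -0.02, with a 95% interval from -0.10 to 0.07. NR3C2, the mineralocorticoid receptor, had 153 ± 3.09 and 155 ± 6.28 CPM, a log2 difference of 0.01 with an interval from -0.05 to 0.08. The groups overlapped almost wholly for both. FKBP5, the cochaperone that lowers receptor affinity, had 12.1 ± 1.63 and 11.5 ± 1.05 CPM (SD, n = 6 each), and HSP90AA1, the chaperone that holds the receptors, had 2326 ± 53.9 and 2268 ± 84.5 CPM. NR3C1, NR3C2, FKBP5 and CRH were named for their role, with their values already seen. Of the 13 receptor, chaperone and coactivator genes tested, 3 were higher and 10 lower, 0 had an unadjusted p under 0.05, and all 13 intervals lay within 1.5-fold.

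Of 15 tested genes listed as glucocorticoid targets, 7 were higher and 8 lower, 1 had an unadjusted p under 0.05, and their median log2 fold change was -0.01. That gene was TSC22D4, a relative of the glucocorticoid-induced leucine zipper, with 142 ± 6.19 and 149 ± 2.09 CPM (SD, n = 6 each). PDK4, a kinase that restrains pyruvate oxidation, had 23.8 ± 3.81 and 20.8 ± 1.84 CPM, with all 6 sGC animals below the control mean and an adjusted p of 0.749. Among 20 genes of the CRH system and stress peptides, 1 had an unadjusted p under 0.05, the peptide gene CCK, with 53.2, 58.9 and 63.9 CPM in control and 60.2, 62.3 and 74.2 CPM in sGC animals. CRH itself, with 1.78 ± 0.400 and 1.71 ± 0.416 CPM (SD, n = 6 each), was too scarce for a narrow interval, which ran from -0.44 to 0.35 on the log2 scale. The 17 clock genes gave 0 with an unadjusted p under 0.05, and their log2 fold changes stayed between -0.05 and 0.08.

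Proteins of the cytosolic ribosome had the highest share of members with an unadjusted p under 0.05 among the 53 gene lists. Of 48 genes tested, 46 were higher and 2 lower (RPL22 and RPS4X) in sGC animals. Their median log2 difference was 0.08 against -0.000407 over all genes. An unadjusted p under 0.05 was reached by 15 of the 48, all higher, which is 31.2% of the list against 3.74% of all genes tested. By the adjusted p of edgeR, 0 passed. RPS28, a small subunit protein, had 42.3, 51.6 and 59.0 CPM in the lowest, median and highest control animal and 54.4, 60.1 and 92.3 CPM in sGC animals, so that the log2 difference was 0.37 (standard error 0.116, adjusted p = 0.678). Its groups overlapped, although all 6 sGC animals lay above the control mean. RPL4, a large subunit protein, had 463 ± 13.5 and 476 ± 18.7 CPM (SD, n = 6 each). For 47 of the 48 genes the 95% interval lay within 1.5-fold, RPS28 being the exception. Genes of ribosomal proteins have many near-identical processed copies in mammalian genomes, and how the authors' counting divided such reads is not given in the sources used here.

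The sGC animals differed from each other in these genes. The median over the 48 genes, on the log2 scale relative to the control mean, was 0.179 in sGC replicate 2, 0.166 in sGC replicate 6 and 0.0798 in sGC replicate 4. In sGC replicates 1, 3 and 5 it was -0.00891, 0.0304 and -0.0214, inside the range of the control animals (-0.0376 to 0.0517). In each of sGC replicates 2, 4 and 6, 46 of the 48 genes lay above the control mean, against 18 to 35 in the other 3 sGC animals and 6 to 43 in control animals. Leaving out 1 library at a time, the median stayed between 0.06 and 0.10 and the number of genes with an unadjusted p under 0.05 ranged from 5 to 24. It was 5 without sGC replicate 2, 7 without sGC replicate 6, 8 without sGC replicate 4, 7 without control replicate 3 and 10 without control replicate 2, whereas it was 24 without sGC replicate 1 and 22 without sGC replicate 5. Without sGC replicates 4 and 6 together, the median was 0.06 and 3 genes had an unadjusted p under 0.05. In F1 the median of the list was 0.03, and 0 of the 47 members tested there were called by the adjusted p of edgeR. In F3 the median was 0.21 and 32 of 47 members were called, all higher, where 2.17% of all genes tested were called higher.

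**Figure D4:**
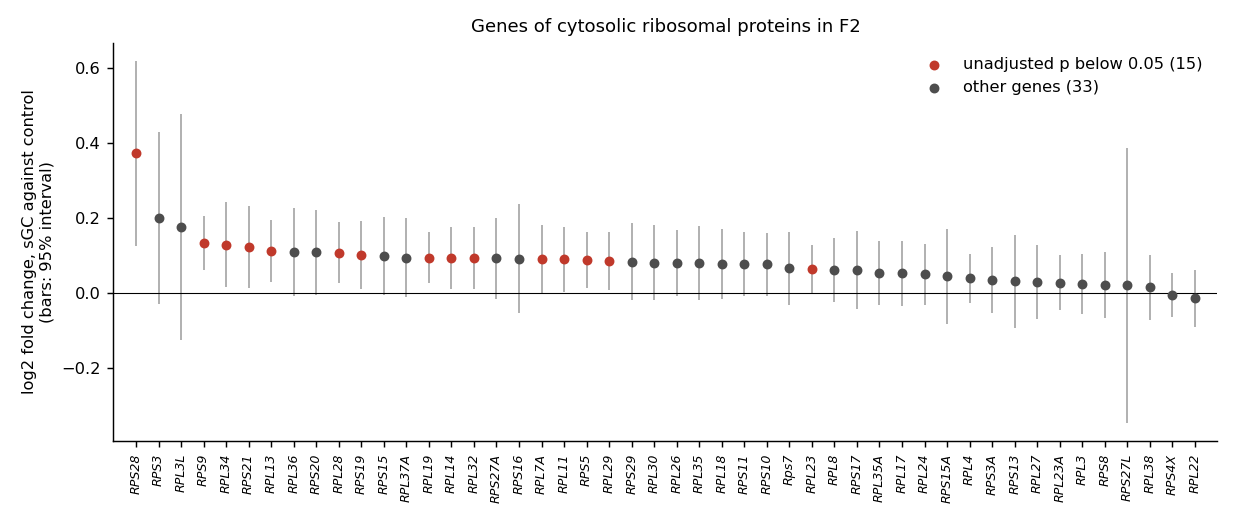
Log2 fold change of sGC against control (vertical axis) with its 95% interval for the 48 cytosolic ribosomal protein genes tested in F2, in order of size. The 15 genes with an unadjusted p under 0.05 are red, and 46 of 48 points lie above 0.

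Immediate early genes, which neurons transcribe within minutes of activity, had a median log2 fold change of 0.11. In sGC animals 17 of 20 were higher and 3 lower, where 49.7% of all genes tested were higher. Only 2 of the 20 (10%) had an unadjusted p under 0.05, both higher, against 3.74% of all genes. These were EGR4, described above, and JUND, an AP-1 subunit with 267 ± 19.9 and 289 ± 10.7 CPM (SD, n = 6 each). ARC, which regulates glutamate receptor endocytosis, had 74.7, 85.1 and 115 CPM in control and 88.7, 101 and 120 CPM in sGC animals. The median over the list per animal ran from -0.115 to 0.262 in control and from -0.0165 to 0.224 in sGC animals. The highest of all 12 animals was control replicate 1. Without it the median of the list was 0.14 and 7 genes had an unadjusted p under 0.05, and without sGC replicate 1 or control replicate 4 the median was 0.07. Without sGC replicates 4 and 6 together, 7 genes had an unadjusted p under 0.05.

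Genes of vesicle fusion were divided. Of 30 SNARE and docking genes, 15 were higher and 15 lower. The 3 with an unadjusted p under 0.05 were all lower, which is 10% of the list against 2.9% of all genes. STX16, a syntaxin of the Golgi, had 26.8, 29.2 and 30.9 CPM in control and 24.7, 26.3 and 26.9 CPM in sGC animals, which met at their edges. UNC13B, a priming factor of synaptic vesicles, had 83.8 ± 4.85 and 76.9 ± 3.97 CPM (SD, n = 6 each), and STX12, an endosomal syntaxin, was the third. SNAP25, the plasma membrane SNARE, did not pass, with means of 2249 and 2149 CPM. Among 29 synaptotagmins and vesicle membrane genes 15 were higher and 14 lower, with 1 higher and 2 lower at an unadjusted p under 0.05, SYT1 among the latter. Of 14 exocyst and HOPS tether genes 3 were higher and 11 lower, and EXOC1, with 79.3 ± 2.29 and 75.2 ± 1.44 CPM (SD, n = 6 each), was the 1 with an unadjusted p under 0.05. The shares at that level were 10.3% for the synaptotagmin list and 7.14% for the tether list, against 6.64% of all genes. Every gene of these 3 lists had its 95% interval within 1.5-fold.

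Receptor and channel lists gave few members with an unadjusted p under 0.05. The shares were 6.25% for AMPA and kainate, 10% for NMDA and metabotropic glutamate and 10.5% for neuropeptide receptors. Potassium channels gave 6.9% and postsynaptic scaffolds 11.1%, against 6.64% of all genes. Of the AMPA and kainate receptor genes, 8 were higher and 8 lower, and CNIH2, an auxiliary subunit, had the smallest p with 486 ± 28.6 and 518 ± 18.3 CPM (SD, n = 6 each). GRIA2, the subunit that makes AMPA receptors tight to calcium, had 922 ± 30.5 and 885 ± 39.4 CPM. Of 10 NMDA and metabotropic glutamate receptor genes, GRM2 had an unadjusted p under 0.05 (17.3 ± 1.54 and 14.9 ± 2.03 CPM), and of 13 GABA receptor genes 0 did. Among 19 neuropeptide receptors NTSR1, a neurotensin receptor, had 13.2, 14.9 and 18.4 CPM in control and 16.3, 18.2 and 19.8 CPM in sGC animals, and the somatostatin receptor SSTR3 had a log2 difference of 0.11. Of 58 potassium channel genes, 2 higher and 2 lower had an unadjusted p under 0.05, KCNS1 and KCNK5 with the smallest p. KCNK5, a two-pore channel, had 1.33, 1.60 and 1.88 CPM in control and 1.85, 2.26 and 2.81 CPM in sGC animals. Of 18 postsynaptic scaffold and kinase genes, CAMK2A had 5362 ± 227 and 5678 ± 348 CPM and SHANK3 had 258 ± 15.3 and 279 ± 22.4 CPM (SD, n = 6 each), both with an unadjusted p under 0.05.

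Most collagen genes had lower values in sGC animals. Of 35 collagen genes tested, 27 were lower and 8 higher, and 3 had an unadjusted p under 0.05, all lower, which is 8.57% against 6.64% of all genes. COL5A2, a fibrillar collagen, had 13.6, 18.3 and 20.5 CPM in control and 11.9, 15.1 and 17.4 CPM in sGC animals. COL6A2, of the beaded filament collagen, had 20.9, 24.3 and 25.3 CPM in control and 15.8, 21.5 and 22.8 CPM in sGC animals. The groups overlapped for both. Relative to the control mean, the median over the 35 genes was -0.442 in sGC replicate 4 and 0.0804 in sGC replicate 5, while control animals ran from -0.114 to 0.144. The median log2 fold change of -0.10 became -0.06 without sGC replicate 4, -0.16 without sGC replicate 5 and -0.04 without sGC replicates 4 and 6 together, and the number of lower genes with an unadjusted p under 0.05 ran from 1 (without sGC replicate 3 or 4 or control replicate 1, 2 or 4) to 10 (without sGC replicate 5). The summed level of 17 meningeal fibroblast markers, 3 of which are collagens, lay between 841 and 1027 CPM in control and between 771 and 1187 CPM in sGC animals, and its part in the result was not tested. Among 30 other matrix genes, NPNT, SPARC and TNC were higher with an unadjusted p under 0.05. SPARC, a collagen-binding protein that astrocytes secrete, had 1639.8, 1702 and 1826 CPM in control and 1675, 1927 and 2076 CPM in sGC animals.

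Chemokine, interleukin, interferon and NF-kB lists gave 3 members each with an unadjusted p under 0.05, all higher in sGC animals. The shares were 30%, 16.7%, 17.6% and 13.6% of these lists in that order, against 3.74% of all genes higher at that level. Of 10 chemokine and receptor genes, 8 were higher and 2 lower. The interleukin list was even, with 9 higher and 9 lower and a median log2 difference of 0.0196, which was -0.00343 without control replicate 3. So was the interferon response list, with 9 higher and 8 lower (median 0.00288), and of 10 complement genes 3 were higher and 7 lower, with 0 at an unadjusted p under 0.05. CXCL10, an interferon-induced chemokine, had 0.287, 0.578 and 0.798 CPM in control and 0.629, 0.882 and 1.41 CPM in sGC animals, so that the log2 difference was 0.75, with an interval from 0.20 to 1.31 and an adjusted p of 0.678 by edgeR. CCR6, a receptor of lymphocytes, had 1.24, 1.40 and 2.02 CPM in control and 1.70, 1.92 and 2.51 CPM in sGC animals. CX3CL1, the neuronal fractalkine, had 494 to 543 CPM in control and 503 to 568 CPM in sGC animals. Of the 3 among 18 interleukin and receptor genes, 2 were IL23R (1.22 ± 0.425 and 1.85 ± 0.353 CPM) and IL33 (29.1 ± 1.47 and 31.2 ± 1.19 CPM), an alarmin of glia. Leaving out 1 library at a time, 1 to 4 interleukin genes were higher at that level. Of 22 genes of NF-kB and TNF signalling 15 were higher and 7 lower, and the adaptor TRAF2 had 22.5 ± 1.33 and 25.3 ± 0.529 CPM. The smallest p of 17 interferon response genes was that of PSMB9, a subunit of the immunoproteasome (2.43 ± 0.287 and 3.12 ± 0.547 CPM). JAK-STAT genes gave 1 higher (SOCS7) and 2 lower of 17 (17.6% against 6.64% of all genes), and STAT2 had 32.5 ± 1.06 and 29.4 ± 2.99 CPM.

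Cell type markers were checked against the tissue label. Markers of hippocampal neurons were present in all animals, with 11 of 13 listed dentate granule cell genes and 15 of 16 pyramidal cell genes tested. PROX1, the defining factor of granule cells, was at 113 ± 13.4 CPM in control and 127 ± 11.5 CPM in sGC animals (SD, n = 6 each). It was the 1 granule cell marker with an unadjusted p under 0.05, and 9 of the 11 were higher in sGC animals and 2 lower. Of the astrocyte markers, 12 of 14 were higher in sGC animals and 2 lower, and 4 of 14 (28.6%) had an unadjusted p under 0.05, all higher, against 3.74% of all genes. AQP4, the water channel of astrocyte end feet, had 665, 770 and 896 CPM in control and 804, 883 and 937 CPM in sGC animals (log2 fold change 0.18, standard error 0.0574, adjusted p = 0.678). GFAP, their intermediate filament, had 388, 438 and 527 CPM in control and 432, 500.0 and 583 CPM in sGC animals. SLC1A2, their glutamate transporter, had 4297 ± 391 and 4347 ± 517 CPM, and the median log2 fold change of the list was 0.04, which became 0.02 without sGC replicate 3 or control replicate 3 and 0.06 without control replicate 6. Without control replicate 3, 4 or 5 or sGC replicate 6, 2 markers had an unadjusted p under 0.05. Per animal, the median over the astrocyte list was 0.151 in sGC replicate 3 and 0.14 in sGC replicate 6. In the other sGC animals it lay between -0.00481 and 0.0356, inside the range of the control animals (-0.0581 to 0.0867). The 13 microglial markers tested were divided, 6 higher and 7 lower in the sGC group, and the median of their log2 differences was -0.00687. Only 2 of the 13 (15.4%) had an unadjusted p under 0.05, both lower, against 2.9% of all genes. The purine receptor P2RY12 was among these 2, with 49.9 ± 3.58 and 45.2 ± 4.30 CPM (SD, n = 6 each). None of the 16 myelin genes, 10 precursor genes, 18 endothelial and pericyte genes or 17 striatal and thalamic genes had an unadjusted p under 0.05.

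Choroid plexus markers varied from animal to animal within both groups. TTR, the transport protein that choroid plexus epithelium secretes, had 459 CPM in control replicate 1, 186 CPM in control replicate 4, 658 CPM in sGC replicate 2 and 633 CPM in sGC replicate 5, while the other 8 animals lay between 0.943 and 26.3 CPM. The summed level of 13 choroid plexus and ependyma markers lay between 258 and 823 CPM in control and between 249 and 1075 CPM in sGC animals. TTR had the largest within-group spread of all genes above 5 CPM and the largest loading on the first 2 principal components. Its log2 fold change of 0.92, the highest of all genes tested, had a standard error of 1.18 and a 95% interval from -1.57 to 3.41.

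**Figure D5:**
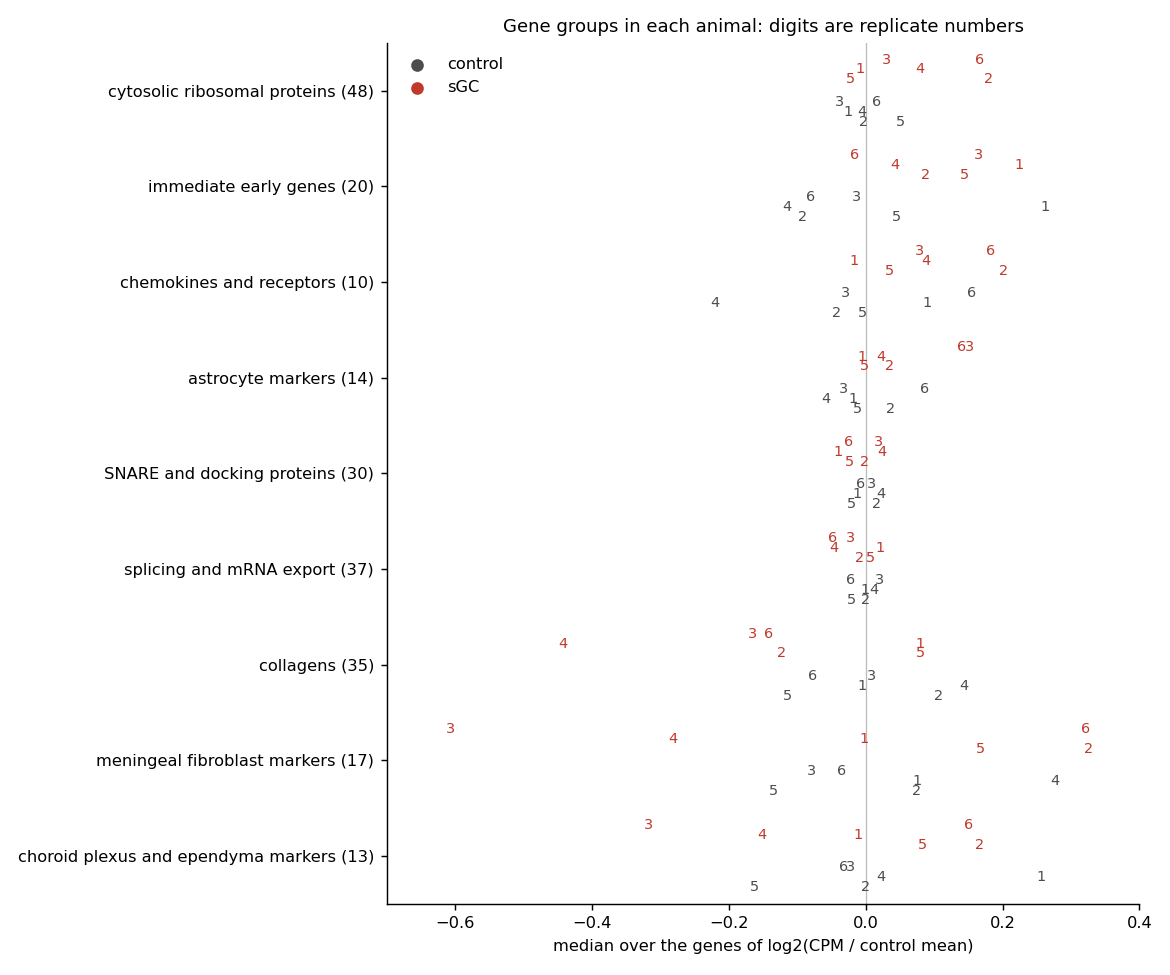
Median over the genes of a group (number of genes in brackets) of log2(CPM / control mean), on the horizontal axis, for each F2 animal. Digits are replicate numbers, sGC animals are red and stand above the control animals of the same group. The ribosomal medians of sGC replicates 2, 4 and 6 lie above all control animals, and the collagen median of sGC replicate 4 lies at -0.442.

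DNA methylation was measured in the same generation. Among the 18 genes of its machinery, 11 were higher and 7 lower. DNMT3B and MBD4 were lower and MBD3 higher at an unadjusted p under 0.05, which is 16.7% of the list against 6.64% of all genes. DNMT3B, a de novo methyltransferase, had 16.8 ± 2.77 and 12.9 ± 2.11 CPM (SD, n = 6 each), and the log2 difference was -0.38 (standard error 0.118, adjusted p = 0.678). All 6 sGC animals lay below the control mean, and the groups overlapped. MBD3, a subunit of the NuRD complex, had 62.2 ± 2.83 and 67.5 ± 2.79 CPM (SD, n = 6 each). A list of 199 candidate genes, drawn up from earlier work on glucocorticoid exposure, comes with the study, and 159 of them were tested, 81 higher and 78 lower, with 11 higher and 6 lower at an unadjusted p under 0.05 (10.7% against 6.64%) and 0 past the adjusted threshold of edgeR (smallest adjusted p = 0.507, CNKSR2).

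Lists of the basic cell machinery were tested as well. The share with an unadjusted p under 0.05 was 10.8% for splicing and export and 7.14% for the proteasome, against 6.64% of all genes. It was 3.57% for complex I, 3.85% for complexes II to V, 4.76% for cholesterol synthesis and 3.45% for chaperones. Of 37 splicing and export genes 10 were higher and 27 lower, with 1 higher and 3 lower at an unadjusted p under 0.05, DDX39B and SRSF5 among the latter. SRSF5, a splicing regulator, had 91.0, 97.1 and 99.9 CPM in control and 81.5, 91.3 and 95.3 CPM in sGC animals. Of 28 complex I subunits 1 had an unadjusted p under 0.05, and of 26 subunits of complexes II to V 1 did. Of 28 proteasome subunits 2 did and of 21 cholesterol synthesis genes 1 did. HSPA1B, an inducible heat shock protein with near-identical copies, was the 1 of 29 chaperone genes, with 47.4 ± 6.45 and 57.5 ± 7.22 CPM (SD, n = 6 each).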

How the data were processed

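Hippocampal mRNA of 12 F2 females (6 sGC, 6 control) was sequenced with a TruSeq V2 kit, which does not mark strand, so overlapping and antisense genes cannot be separated. The deposited values are raw counts per gene made by the authors, and the submitters' processing notes name TopHat2 and edgeR. The genome build and the counting tool for RNA are not given in the sources used here. Columns of the authors' own comparisons (log2 fold change, mean level, likelihood ratio, p and adjusted p) stand in the same table and were not used. The methylation files were not used here.

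Counts were filtered with filterByExpr, scaled by TMM and tested with edgeR 4.0.16 in R 4.3.3 by the quasi-likelihood test, 6 sGC against 6 control libraries without covariates, with Benjamini-Hochberg adjustment over all genes tested and a threshold of 0.05. Standard errors and 95% intervals come from the same fit. F1 and F3 were fitted likewise, and the interaction was fitted over all 36 libraries. Alternatives used the likelihood ratio test, DESeq2 1.42.0, limma 3.58.1 (voom), other scalings and filters, a replicate block and each library left out. The scripts were tested on simulated data.

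Named genes were the 12 higher and 12 lower genes with the smallest p, genes called by the likelihood ratio test or DESeq2, in each list the 2 members with the smallest p, the most abundant member and defining markers, the 8 most variable genes above 5 CPM, and the 3 genes in each direction with the smallest interaction p. Other genes named here were chosen after their values were seen. The members and the gene lists were chosen with earlier results of these data known.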

Additional observations from a re-analysis of the deposited data

Results flagged for a closer look

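Single animals stood far from the other 5 of their group in 8 of 82 sets of 6 values examined, judged by Dixon's criterion. Chance meets it in about 1 of 20 sets that were not chosen for their spread, but 16 of the 82 sets belong to genes chosen for a large spread within groups, and these gave 3 of the 8 (HOGA1, NES and ASB5). The genes of other sets were chosen for a small p, so the number of sets is no measure against chance. TRAF3IP1 was at 22.607 CPM in control replicate 5, with the next control animal at 20.854 CPM. RPS9 was at 138.73 CPM in the same animal, with the next at 126.67 CPM. LCTL was at 9.3933 CPM in control replicate 1, with the next control animal at 5.9865 CPM. ME1 was at 42.207 CPM in sGC replicate 5, below the next sGC animal at 45.419 CPM.

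HOGA1, an enzyme of hydroxyproline breakdown, was at 25.889 CPM in control replicate 2, with the next control animal at 7.0698 CPM. NES, the intermediate filament of neural progenitors, was at 141.63 CPM in sGC replicate 6, with the next sGC animal at 57.37 CPM. ASB5 was at 20.851 CPM in sGC replicate 2, with the next sGC animal at 4.3358 CPM. The summed level of the splicing and mRNA export genes was lowest in control replicate 6, at 4429.4 CPM, with the next control animal at 4529.8 CPM.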

How the results depend on the processing

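Against 0 genes called by the quasi-likelihood test, the likelihood ratio test called 6 and DESeq2 called 10, and leaving out 1 library gave 0 to 1, the 1 being DDX39B without sGC replicate 5. Against 758 genes at an unadjusted p under 0.05, the fit over all 36 libraries gave 493 and limma-voom gave 940, and leaving out 1 library gave 538 (without control replicate 3) to 917 (without control replicate 5). Against 88 listed genes at that level, these gave 43 and 112, and leaving out 1 library gave 59 to 106. Genes without overlap numbered 46, 55 to 117 without 1 library and 154 without sGC replicates 4 and 6 together, an alternative chosen after seeing the data, and fewer animals make overlap rarer by construction. For the interaction, against 0 genes, the likelihood ratio test called 6, the fit without libraries numbered 32 to 36 called 1, and leaving out 1 F2 library gave 0 to 7, the 7 without sGC replicate 6. The cause of the other changes was not tested. All 24 genes with the smallest p kept their direction in all settings in which they were tested. Animals with the same replicate number did not deviate together (correlations from -0.367 to 0.192), and no control animal correlated best with the sGC animal of its number. These values cannot show that such animals had nothing else in common. With the replicate block, 0 genes were called and 680 had an unadjusted p under 0.05, 92 of them listed, and the interaction called 0. Precision was limited for genes with few reads.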

Other observations

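The genes that varied most within groups, among those above 5 CPM, had within-group SDs of log2 CPM of 3.38 for TTR, 1.63 for ACTL7B, 1.60 for GADL1, 1.46 for HOGA1, 1.28 for NES, 1.11 for CD109, 0.977 for ASB5 and 0.931 for PLK4.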
